A study of Mus musculus with 18 samples.

Results

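Erythroid genes were followed in the dura mater of 18 male mice, across naive and stroke dura with and without mast cells. The 7 genes are Klf1, Hemgn, Alas2, Slc4a1, Epb42, Rhag and Ahsp. They were picked from the values of engrafted dura, so every comparison that holds an engrafted group is given for them as a description, with no test. A gene counted as measured where a probe set of the array carried its symbol and no other. This held for 6 of the 7, with 1 probe set each, of 19937 genes measured in this way. Ahsp, the chaperone of free alpha globin, was not analysed here.

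Red blood cells arise from dividing precursors in bone marrow and, under stress, in the spleen. The transcription factor Gata1 and its partners bind GATA motifs, and Klf1 binds CACCC motifs. Together they switch on the genes for haem synthesis, globin and the red cell membrane. Precursors and young reticulocytes hold these RNAs, and mature red cells have lost nearly all of them. The dura lies beside the marrow of the skull, and its vessels carry blood. Stem cell factor acts through Kit on early erythroid cells as well as on mast cells, and KitW/W-v mice are known to be anaemic.

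RNA of each dura, taken after perfusion with cold saline, went on a separate Affymetrix array, with no pooling of mice. Wild-type mice were WBB6F1-Kit+/+, and mast cell-deficient mice were WBB6F1-KitW/W-v. Engrafted mice were also WBB6F1-KitW/W-v and were given mast cells by vein 8 to 10 weeks before the experiment, so they keep the Kit alleles in all cells but the transferred ones. The source of those mast cells is not given in the sources used here. Each category had 3 naive mice and 3 mice studied 2 days after a stroke, in which a filament closed the middle cerebral artery for 30 minutes. The age at surgery was 17 to 21 weeks, and naive mice were matched for it. Sham-operated mice were not analysed here.

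The promoters of the measured genes are shown first. RefSeq promoters of GRCm38.p6 were found for 5 of the 6 genes, all but Slc4a1. GATAA and CACCC were searched on both strands in the 250 bases before the transcription start. GATAA occurred in all 5, against 22.6% of 32851 promoters of the same length. CACCC occurred in Klf1, Rhag and Alas2, against 52% of promoters, and 10.1% of promoters held both motifs. The last 120 bases before the start are printed here for 4 genes, 5′ to 3′ on the gene's strand. Capitals mark GATAA or CACCC, and read TTATC or GGGTG where the motif lies on the opposite strand.
Klf1: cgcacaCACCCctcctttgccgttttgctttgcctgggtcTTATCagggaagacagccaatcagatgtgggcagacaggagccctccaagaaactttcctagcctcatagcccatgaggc
Hemgn: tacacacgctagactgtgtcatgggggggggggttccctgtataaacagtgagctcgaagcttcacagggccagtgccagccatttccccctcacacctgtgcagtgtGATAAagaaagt
Alas2: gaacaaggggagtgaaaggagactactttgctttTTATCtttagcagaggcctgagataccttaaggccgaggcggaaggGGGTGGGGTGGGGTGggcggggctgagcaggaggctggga
Rhag: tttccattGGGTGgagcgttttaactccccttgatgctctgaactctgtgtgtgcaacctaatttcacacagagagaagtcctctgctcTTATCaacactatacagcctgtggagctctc
The Klf1 stretch is chr8:84901862-84901981 (plus strand) and the Hemgn stretch chr4:46404184-46404303 (minus strand). The Alas2 stretch is chrX:150547297-150547416 (plus strand) and the Rhag stretch chr17:40811029-40811148 (plus strand). In Klf1 the CACCC match begins 114 bases before the start and the GATAA match lies 80 to 76 bases before it. In Hemgn the GATAA match lies 12 to 8 bases before the start. Alas2 has 3 CACCC matches in a row, from 40 to 26 bases before the start, and a GATAA match 86 to 82 bases before it. The Rhag promoter has GATAA at 31 to 27 and CACCC at 112 to 108 bases before the start. In Epb42 the GATAA match lies further out, at 226 to 222 bases before the start. The E-box motif CANNTG, which Tal1 and other helix-loop-helix factors bind, occurred in Epb42, Hemgn and Klf1, and in 66.2% of all promoters. A match is a run of letters and was not tested for binding. The part of these motifs in the array values was not tested.

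The values are log2 array values. Array medians lay between 7.77 and 7.91, and the lower quartile of an array between 6.09 and 6.23. A list score is the mean, over the measured genes of a list, of the log2 value minus the mean of that gene over 18 arrays. Mast cell genes checked the labels: their score lay between -1.02 and -0.85 in the 6 deficient arrays and between 0.02 and 1.07 in the other 12. Dural fibroblast genes scored from -0.22 to 0.32. In naive dura all 8 of them were higher in deficient than in wild-type mice, with a median of 0.26 (0 passed, 5 at an unadjusted p under 0.05). Of all tested probe sets, 0.0185% passed in that comparison and 6.82% had an unadjusted p under 0.05. Choroid plexus genes were low in 5 arrays, with scores under -1.5. These are replicates 1 and 3 of naive deficient dura, replicate 3 of naive engrafted dura, and replicate 2 of wild-type and of deficient dura after stroke. Replicate 3 of engrafted dura stood apart in the erythroid genes, both naive and after stroke. Fewer cells of a type and less RNA per cell cannot be told apart in whole tissue.

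Engrafted dura held the highest mean level of every measured member, and engrafted dura after stroke the highest of all 6 groups. Replicate 3 of engrafted stroke dura was the highest of 18 arrays for all 6 genes. Replicate 3 of naive engrafted dura ranked 2 for 5 of them and 4 for Alas2. The lowest mean was in wild-type dura after stroke for 5 genes and in naive deficient dura for Alas2.

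Klf1 (probe set 10573457) encodes the transcription factor that drives the adult globin and red cell membrane genes. Its log2 levels in naive dura were 7.24, 7.31 and 7.20 in wild type, 7.08, 7.11 and 7.26 in deficient and 7.31, 7.32 and 7.67 in engrafted mice. After stroke they were 7.04, 7.10 and 7.09 in wild type, 7.11, 7.30 and 7.32 in deficient and 7.30, 7.55 and 7.85 in engrafted mice. The groups followed each other closely, and neighbours in the order of the means all overlapped. The naive engrafted arrays lay above all naive deficient arrays, by 0.28 ± 0.12 (difference of means ± SE). After stroke the engrafted arrays lay above all wild-type arrays, by 0.49 ± 0.12.

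Hemgn (probe set 10512757) encodes hemogen, a nuclear protein of blood precursors. Its log2 levels in naive dura were 7.40, 7.34 and 7.54 in wild type, 7.27, 7.19 and 7.16 in deficient and 7.39, 7.42 and 8.15 in engrafted mice. After stroke they were 7.22, 7.25 and 7.14 in wild type, 7.25, 7.23 and 7.37 in deficient and 7.51, 7.77 and 8.32 in engrafted mice. Engrafted arrays lay above all deficient arrays both naive, by 0.45 ± 0.19, and after stroke, by 0.58 ± 0.19. They also lay above all wild-type arrays after stroke, by 0.66 ± 0.19. Neighbours in the order of the 6 means overlapped throughout.

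Alas2 (probe set 10602372) encodes the erythroid form of the first enzyme of haem synthesis. Its log2 levels in naive dura were 8.84, 8.83 and 8.94 in wild type, 9.31, 8.22 and 8.60 in deficient and 9.10, 9.32 and 9.81 in engrafted mice. After stroke they were 8.88, 9.50 and 8.42 in wild type, 8.80, 9.03 and 10.10 in deficient and 9.93, 9.22 and 10.18 in engrafted mice. Single mice of other groups reached the engrafted range, and a deficient mouse after stroke exceeded 2 of the 3 engrafted mice. Only against naive wild type did the engrafted arrays lie above all others, by 0.54 ± 0.36. Neighbours in the order of the means overlapped throughout.

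Slc4a1 (probe set 10391649) encodes band 3, the anion exchanger and main integral protein of the red cell membrane. Its log2 levels in naive dura were 8.95, 8.60 and 9.09 in wild type, 8.56, 8.70 and 8.71 in deficient and 8.78, 9.01 and 10.31 in engrafted mice. After stroke they were 8.09, 8.36 and 7.89 in wild type, 8.47, 8.55 and 8.93 in deficient and 9.04, 9.64 and 10.73 in engrafted mice. This gene had the widest gap between categories after stroke: the engrafted mean was 3.23-fold the wild-type mean, a difference of 1.69 ± 0.38. Engrafted arrays also lay above all deficient arrays, by 0.71 ± 0.38 naive and 1.16 ± 0.38 after stroke. In the order of the means, wild type after stroke lay apart from its neighbour, deficient after stroke, and the other neighbours overlapped.

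Epb42 (probe set 10486664) encodes a band 3 partner that ties band 3 to the ankyrin and spectrin skeleton. Its log2 levels in naive dura were 6.73, 6.69 and 6.83 in wild type, 6.50, 6.66 and 6.61 in deficient and 6.55, 6.68 and 7.50 in engrafted mice. After stroke they were 6.42, 6.31 and 6.34 in wild type, 6.32, 6.47 and 6.75 in deficient and 6.92, 6.99 and 7.62 in engrafted mice. In naive dura 2 of the 3 engrafted mice lay below every wild-type mouse. After stroke all 3 lay above every other mouse of the stroke groups, by 0.66 ± 0.21 over deficient and 0.82 ± 0.21 over wild type. In the order of the means, naive deficient and naive wild type were the only neighbours that did not overlap.

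Rhag (probe set 10445192) encodes the Rh-associated glycoprotein, which carries the Rh antigens to the cell surface. Its log2 levels in naive dura were 5.67, 5.40 and 5.92 in wild type, 5.11, 5.27 and 5.47 in deficient and 5.36, 5.30 and 6.80 in engrafted mice. After stroke they were 4.94, 5.01 and 4.87 in wild type, 5.12, 5.09 and 5.39 in deficient and 5.34, 6.65 and 7.44 in engrafted mice. Only 3 arrays, all engrafted, exceeded the lower quartile of their array, so the lower levels may not be above background and the differences are not exact. After stroke the engrafted mean was 2.89-fold the wild-type mean, a difference of 1.53 ± 0.42. Wild type and deficient after stroke were neighbours in the order of the means that did not overlap.

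**Figure D1:**
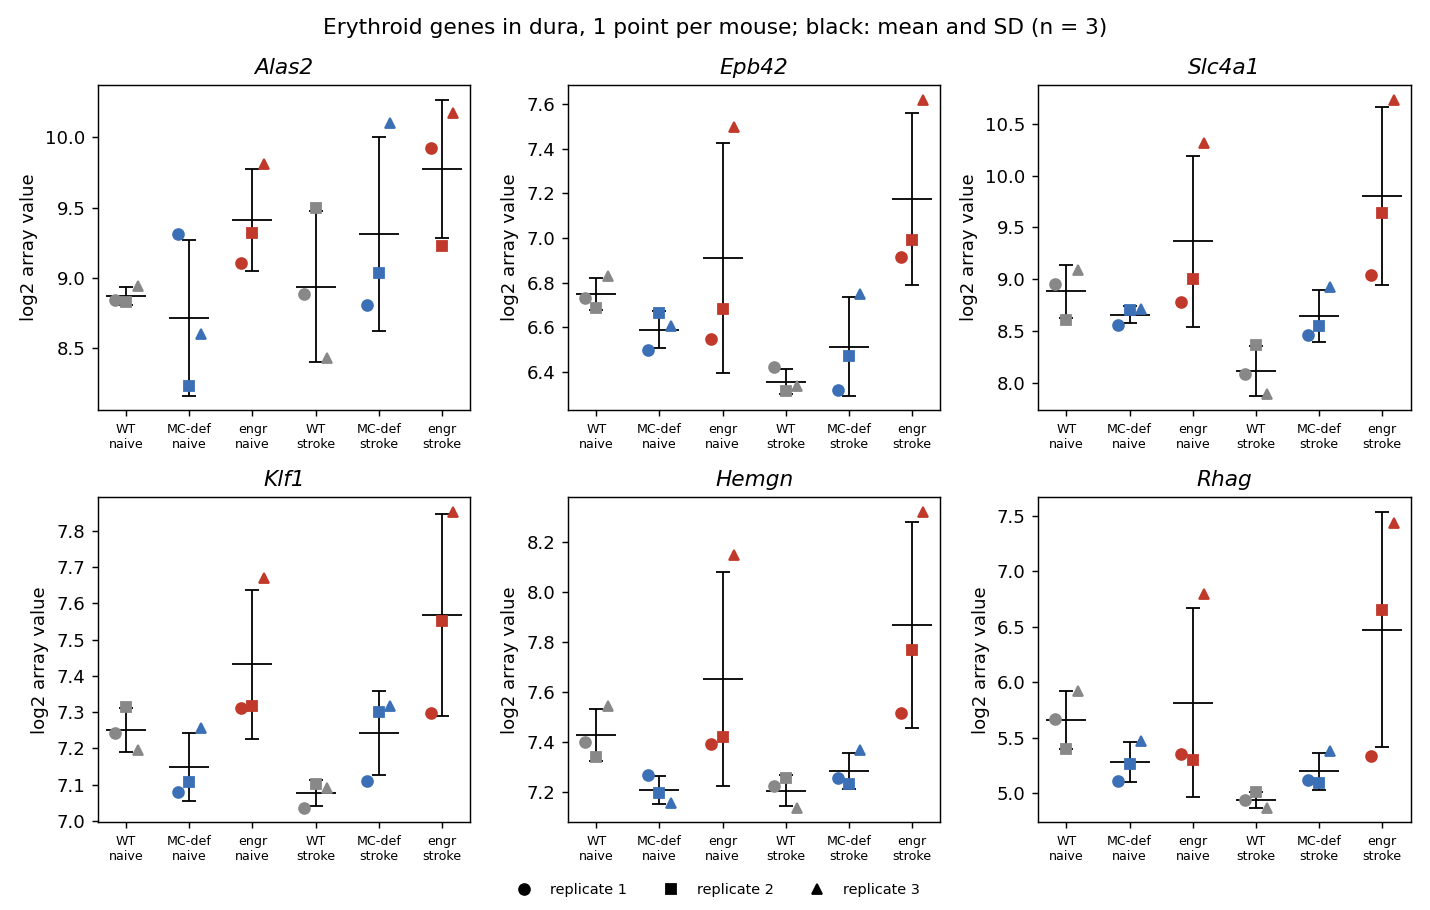
Log2 array value of the 6 measured erythroid genes (y axis, own scale in each panel) in 6 groups (WT, wild type; MC-def, mast cell-deficient; engr, engrafted), 1 point per mouse with its replicate number as the symbol, and the mean and SD of 3 mice in black. Replicate 3 of engrafted stroke dura is the highest array in every panel, and wild-type stroke arrays are low in all panels but Alas2.

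In naive dura the engrafted means were above the deficient means for all 6 genes, by a median of 0.49 (all tested probe sets, 0.02). For Slc4a1, Klf1 and Hemgn, all engrafted arrays lay above all deficient ones, an arrangement that 8.52% of tested probe sets showed. Against naive wild type the median was 0.20, and Alas2 alone had engrafted arrays above all wild-type ones (background 12.1%). These values lean on replicate 3 of naive engrafted dura. With replicate 3 of both engrafted groups left out, an alternative added after the data were seen, the median over deficient was 0.18. Over wild type it was -0.0055, with Epb42, Hemgn and Rhag then below wild type, by -0.14, -0.021 and -0.34.

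After stroke the engrafted means were again above both other categories for all 6 genes. The median difference over deficient dura was 0.62, and Epb42, Slc4a1 and Hemgn had all engrafted arrays above all deficient ones (background 3.81%). Over wild type the median was 0.83, and 5 genes, all but Alas2, had separate arrays (background 7.96%). The engrafted arrays are shared between these comparisons, and they chose the members, so nothing is read from these counts. Without replicate 3 of both engrafted groups the medians were 0.40 over deficient and 0.62 over wild type. All 6 genes stayed above 0 in both comparisons, with Slc4a1 at 0.69 over deficient and 1.23 over wild type.

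Within engrafted mice, stroke dura had higher means than naive dura for all 6 genes, by a median of 0.32, from 0.14 for Klf1 to 0.66 for Rhag. The 2 groups overlapped in every gene, whereas 8.89% of tested probe sets had all engrafted stroke arrays above all naive ones. Without replicate 3 of stroke engrafted dura, Slc4a1, Klf1 and Hemgn lay slightly below the naive mean, by -0.025, -0.0070 and -0.011. The stroke response of engrafted mice minus that of wild-type mice was above 0 for all 6 genes, with a median of 0.55 and the highest values for Rhag (1.38 ± 0.59) and Slc4a1 (1.21 ± 0.53). Minus that of deficient mice the median was 0.24, and Alas2 stood at -0.23 ± 0.51.

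**Figure D2:**
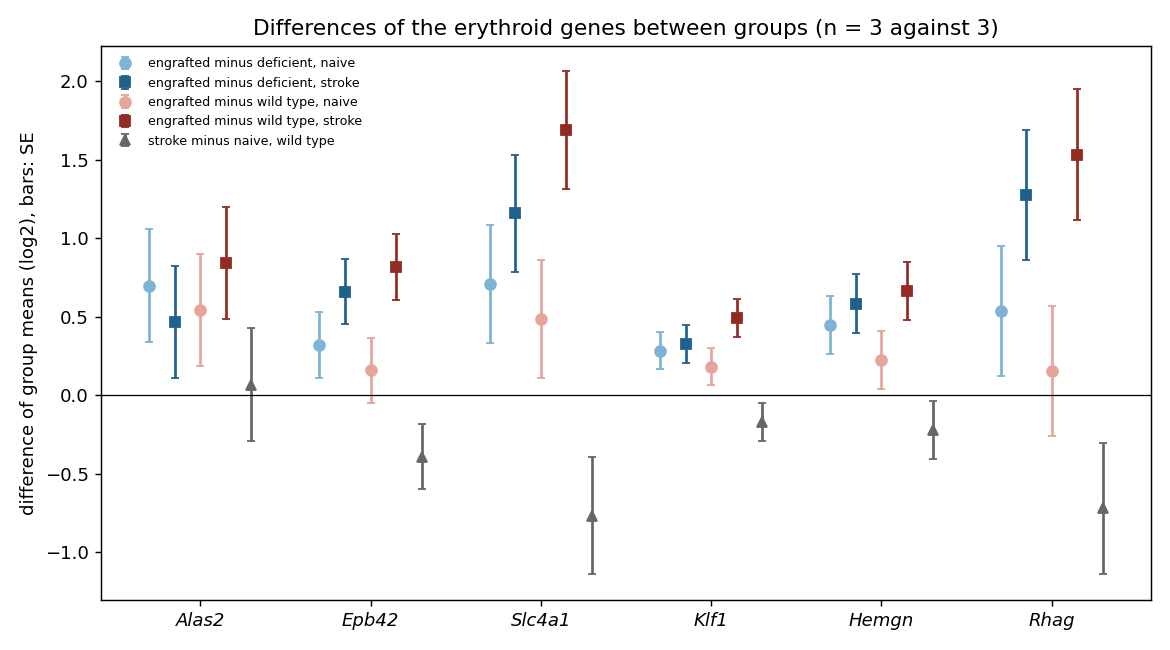
Difference of group means on the log2 scale (y axis) for each erythroid gene (x axis), with bars for the SE of the fit over 18 arrays. Dark squares, engrafted dura after stroke against deficient (blue) or wild type (red), lie above the light naive circles for all genes except Alas2 in blue; grey triangles, stroke minus naive in wild type, lie below 0 except for Alas2.

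Groups without engrafted mice were tested with limma, with p adjusted by Benjamini and Hochberg over 21640 probe sets. Which comparison picked the members is not known, and wild-type or deficient arrays may have served in it beside the engrafted ones. The p-values of the members may therefore not be independent of that choice. In wild-type dura, 5 members were lower after stroke than in naive mice, and every stroke array lay below every naive array, as in 14.2% of tested probe sets. The log2 differences were -0.77 ± 0.38 for Slc4a1, -0.72 ± 0.42 for Rhag, -0.39 ± 0.21 for Epb42, -0.22 ± 0.19 for Hemgn and -0.17 ± 0.12 for Klf1. Alas2 stood at 0.07 ± 0.36. Neuron markers were lower in the same comparison, with 7 of 7 below 0 and a median of -0.87. Of these, Snap25, Syn1, Nefl and Gad1 fell (limma adjusted p from 0.0271 to 0.0435). Their part in the erythroid values was not tested. None of the 6 members passed at an adjusted p of 0.05 or at an unadjusted p of 0.05, while 10.9% of tested probe sets passed the adjusted threshold in this comparison. The adjusted p was 0.210 for Slc4a1, 0.252 for Epb42, 0.297 for Rhag, 0.393 for Klf1, 0.488 for Hemgn and 0.933 for Alas2.

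This test takes its spread from all 6 groups. The SD of Slc4a1 was 0.83 and 0.86 in the engrafted groups and 0.08 to 0.25 in the others, while the SD of Alas2 was highest in deficient dura after stroke, at 0.69. With only the 6 wild-type arrays in the fit, 3 of the 6 members fell after stroke, while 6.65% of tested probe sets were called in that fit. There the limma adjusted p was 0.0252 for Epb42, 0.0307 for Slc4a1 and 0.0200 for Rhag, with the same differences. Rhag lay under the lower quartile in all 6 of these arrays. The wild-type stroke arrays may have served in picking the members, so low values there may follow from the pick, in this fit and the next. Without replicate 3 of both engrafted groups, an alternative added after the data were seen that called 9.86% of tested probe sets, Epb42 (adjusted p = 0.0195) and Slc4a1 (adjusted p = 0.0144) fell and Rhag did not pass (adjusted p = 0.0742).

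In deficient mice the same genes stood close to their naive level after stroke. The differences were -0.01 ± 0.38 for Slc4a1, -0.09 ± 0.42 for Rhag, -0.08 ± 0.21 for Epb42, 0.09 ± 0.12 for Klf1 and 0.08 ± 0.19 for Hemgn, while Alas2 stood at 0.60 ± 0.36. All 6 genes overlapped between stroke and naive mice. Of tested probe sets, 13.7% had all stroke arrays above all naive ones, and the share with all below is not given here. None passed (limma adjusted p from 0.466 to 0.990; none at an unadjusted p of 0.05; background 0.25%). The difference between the deficient and wild-type responses was above 0 for all 6 genes, with a median of 0.42 and 0.76 ± 0.53 for Slc4a1. It passed for none (limma adjusted p from 0.864 to 0.929, none at an unadjusted p of 0.05, background 0.351%). The categories are thus not shown to differ in the response of these genes.

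The 6 members were not shown to differ between mast cell-deficient and wild-type dura, before stroke or after it. Before stroke deficient means were below wild type for all 6 genes, by a median of -0.19, with Rhag the furthest at -0.38 ± 0.42. Epb42 and Hemgn had all deficient arrays below all wild-type ones (background 6.77%). After stroke deficient means were above wild type for all 6, by a median of 0.21, with Slc4a1 at 0.53 ± 0.38. Slc4a1, Klf1 and Rhag had all deficient arrays above all wild-type ones (background 9.46%). No member passed naive (limma adjusted p from 0.807 to 0.944, background 0.0185%) or after stroke (0.545 to 0.875, background 2.61%), and none had an unadjusted p under 0.05.

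Other erythroid genes were taken from 6 lists by role, with 57 of 68 measured and no member among them. The lists cover globins (3 of 9, none of the 6 adult globin symbols), haem synthesis and mitochondrial iron (11 of 12), the red cell membrane and skeleton (14 of 17), transcription factors (10 of 10), the erythropoietin receptor and iron uptake (5 of 5) and late enzymes and maturation (14 of 15). A further 4 probe sets carried several globin symbols each and were left out. In wild-type dura after stroke, limma called 1 of the 57 as higher and 1 as lower, while 10.9% of tested probe sets passed. Steap3, a ferrireductase of the transferrin cycle, rose by 0.48 ± 0.10 (limma adjusted p = 0.00875). Its level was 9.90 ± 0.17 in naive and 10.38 ± 0.10 in stroke dura (SD, n = 3). Tmcc2, a transmembrane coiled-coil protein, fell by 0.42 ± 0.12 (limma adjusted p = 0.0344), from 9.29 ± 0.15 to 8.87 ± 0.19. Across the 57 genes the median in that comparison was -0.07 (all tested probe sets, 0.01), with -0.19 for the membrane list and 0.15 for the erythropoietin receptor and iron uptake list. Both calls were lost without replicate 3 of naive wild type (0 of the 57 passed). The count was 1 without replicate 2 of naive or replicate 1 or 3 of stroke wild type, 3 without replicate 3 of stroke engrafted and 4 without replicate 2 of stroke wild type. The call of Tmcc2 was also lost with a second quantile normalization and with only the compared groups in the fit, and that of Steap3 without the 5 arrays low in choroid plexus genes. The share of all probe sets called is not given for these refits, so nothing is read from their counts. In the other 11 comparisons limma called 0 of the 57 (background 0% to 2.61%).

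At an unadjusted p under 0.05, 12 of the 57 were counted for stroke in wild type (26% of tested probe sets) and 5 for stroke in deficient mice (13.5%). Deficient against wild type gave 2 in naive dura (6.82%), 8 after stroke (14.4%) and 3 for the difference of the responses (7.35%). Against deficient mice, engrafted mice gave 4 in naive dura (4.7% at this threshold and 0.0185% of adjusted calls) and 10 after stroke (6.28% and 0.0277%). Against wild type they gave 6 in naive dura (19.1%, and 0% of adjusted calls, 0 of 21640) and 20 after stroke (11.6% and 0.411%). Stroke in engrafted mice gave 5 (10.9% and 1.11%). The response of engrafted mice gave 2 against deficient (9.69% and 0.00462%) and 3 against wild type (13.2% and 0.106%). Nothing is read from the engrafted counts, since those arrays chose the members.

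Of the 6 lists, the membrane list had the highest median in engrafted minus wild-type dura after stroke. The median was 0.40, with 12 of 14 genes above 0, beside 0.15 over all 57 and -0.02 over all tested probe sets. Rhd, the Rh blood group protein, stood at 0.85 ± 0.26, Cldn13, a claudin of erythroid cells, at 0.85 ± 0.29, Kel, the Kell antigen, at 0.62 ± 0.23, and Ank1, ankyrin 1, at 0.54 ± 0.16. Of the highest genes in that list, Aqp1, a water channel also present in other tissues, stood at -0.01 ± 0.12 and Gypc, a glycophorin, at 0.08 ± 0.08. All 10 transcription factors were above 0, with a median of 0.20. Gata1, a regulator of the lineage, stood at 0.20 ± 0.07, with low means of 6.64 in engrafted and 6.44 in wild-type dura. Ldb1 and Lmo2, its widely expressed partners, stood at 0.12 ± 0.06 and 0.17 ± 0.11. Add2 and Dmtn, skeleton proteins that neurons also express, stood at 0.82 ± 0.26 and 0.43 ± 0.18, and Bcl11a, a globin repressor with a role in neurons too, stood highest of the transcription factors at 0.86 ± 0.28. Beside these, 7 of 7 neuron markers were above 0 in the same comparison, with a median of 0.74 (0 passed in limma, 7 at an unadjusted p under 0.05). So were 7 of 7 megakaryocyte and platelet genes (median 0.36) and 9 of 12 mast cell genes (median 0.15), with 0 passed in limma. Of all tested probe sets, 0.411% passed in this comparison and 11.6% had an unadjusted p under 0.05. The part of these 3 lists in the values was not tested. Ank1, Add2, Dmtn, Bcl11a and Gata1 were named after their values were seen. Rhd, Cldn13 and Kel are named as genes most like the members over these same arrays, so their high values are partly fixed by that choice. Kel lay under the lower quartile in 2 of the 3 wild-type stroke arrays.

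Haem synthesis genes were mixed in the same comparison. Alad stood at -0.04 ± 0.11 and Urod at -0.09 ± 0.09, and 5 of the 11 genes were above 0. Slc25a37, which brings iron into the mitochondria of erythroid cells, stood at 0.66 ± 0.17. Of the enzymes, Cpox stood at 0.30 ± 0.13, Fech at 0.15 ± 0.07 and Alas1, the form of other tissues, at -0.14 ± 0.09, all 3 named after their values were seen. Late enzymes had a median of 0.14, with 13 of 14 above 0. Car1, the carbonic anhydrase of young red cells, stood at 1.72 ± 0.53, while Prdx2 stood at -0.07 ± 0.16 and Bnip3l at 0.03 ± 0.05. The iron uptake list had a median of 0.08, with Tfrc, the transferrin receptor, at 0.24 ± 0.19 and Steap3 at -0.08 ± 0.10. Of the embryonic globins, Hba-x stood at 0.02 ± 0.11 and Hbb-y at 0.44 ± 0.26. Slc25a37 and Car1 are also named as genes most like the members over these same arrays, so their high values are partly fixed by that choice. In engrafted minus deficient dura after stroke, the median was 0.08 over all 57 and 0.15 for the membrane list. It was 0.12 for transcription factors, 0.09 for late enzymes, 0.08 for haem synthesis, 0.05 for iron uptake and -0.09 for globins. All tested probe sets had -0.02.

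Among themselves, 5 members varied together from mouse to mouse. The 10 pairs without Alas2 had Pearson r from 0.91 to 0.97 over 18 arrays, and from 0.83 to 0.97 after each group mean was taken away. Alas2 was looser, with r of 0.50 to 0.66 and 0.27 to 0.48. The arrays share group, tissue and array scale, and replicate 3 of the engrafted groups holds the largest deviations, so these are descriptions of the 18 arrays.

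The 10 genes most like the mean of the centred members, of 19931 ranked, were Slc25a37, Rhd, Kel, Cldn13, Ctse, Car1, Rbm38, Trim10, Ermap and Slc43a1. Pearson r over 18 arrays ran from 0.98 for Slc25a37, mitoferrin 1, the mitochondrial iron importer of erythroid cells, to 0.85 for Slc43a1, an amino acid transporter. Of the 10, 7 belong to the erythroid lists above, which hold 57 of the ranked genes, and Ctse, Rbm38 and Slc43a1 do not. Ctse, the protease cathepsin E, averaged 8.80 ± 0.67 in naive engrafted and 9.23 ± 0.80 in engrafted stroke dura, against 8.57 ± 0.14 and 8.35 ± 0.02 in wild type and 8.24 ± 0.08 and 8.34 ± 0.18 in deficient mice (naive and stroke, SD, n = 3). Car1 ran from 7.34 to 9.76 in engrafted stroke dura and from 6.94 to 7.22 in wild-type stroke dura. After group means were taken away, the 10 most alike were Slc25a37, Kel, Rhd, Cldn13, Ctse, Nfe2, Pou5f2, Slc43a1, Cd177 and Olfr875, with r from 0.97 to 0.89. Of these, 5 belong to the erythroid lists, and Olfr875 lay under the lower quartile in all 18 arrays. The 2 rankings shared 6 genes. Both rankings use the engrafted arrays that chose the members, and the lists were written with earlier results of these data known. Nothing is therefore read from the counts of listed genes. Cd177 is a surface protein of neutrophils.

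**Figure D3:**
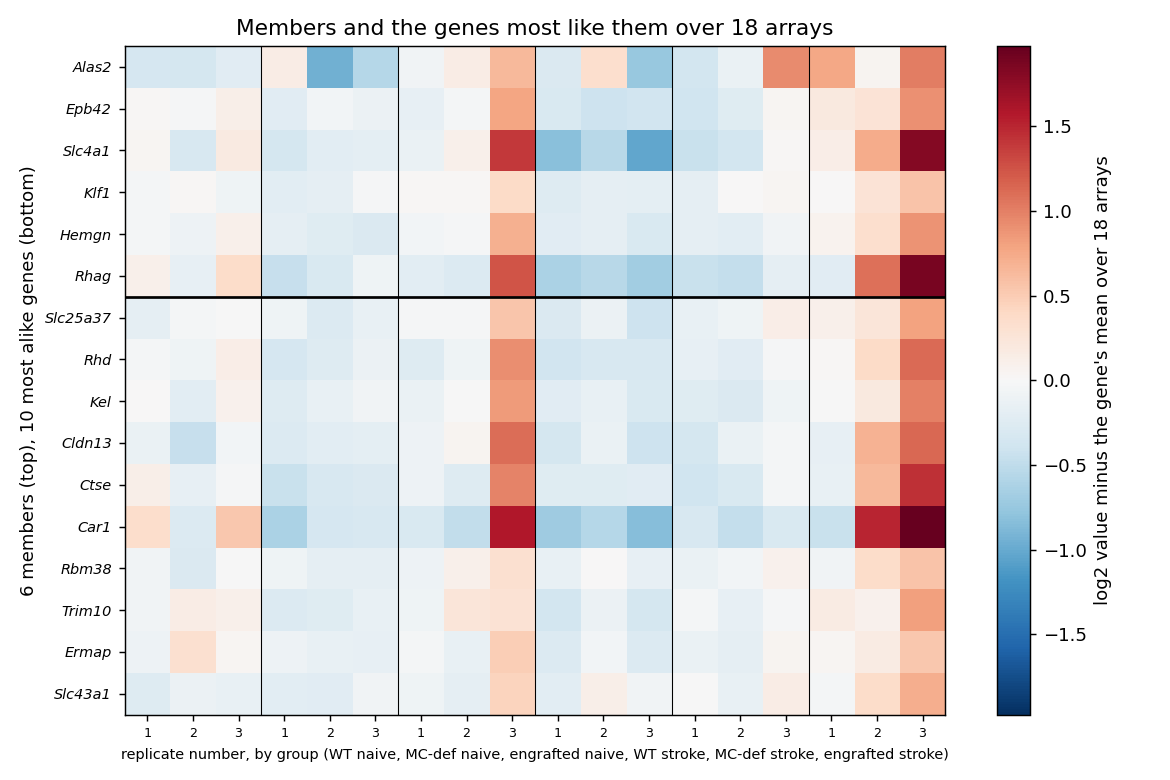
Log2 value minus the gene's mean over 18 arrays (colour) for the 6 members (top rows) and the 10 genes most like them (bottom rows), with 1 column per array in 6 groups of 3. Replicate 3 of both engrafted groups is the reddest column of its group, and engrafted stroke replicate 2 is red for Rhag and Car1.

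Genes of several other cell types were also higher in the engrafted arrays that were high in erythroid genes. The member score of replicates 1, 2 and 3 was -0.10, -0.01 and 0.86 in naive engrafted and 0.16, 0.46 and 1.18 in engrafted stroke dura, and from -0.56 to 0.13 in the 12 other arrays. The granulocyte precursor score (10 of 10 genes measured, such as Elane and Mpo) was -0.50, -0.38 and 0.14 in naive engrafted and 0.41, 1.10 and 1.66 in engrafted stroke dura. It ran from -0.32 to -0.15 in naive wild type, -0.79 to -0.63 in naive deficient, -0.20 to 0.94 in wild-type stroke and -0.19 to 0.08 in deficient stroke dura. In engrafted minus wild-type dura after stroke all 10 of these genes were above 0, with a median of 0.80, and limma called none (6 at an unadjusted p under 0.05). All tested probe sets had a median of -0.02 there, with 0.411% called and 11.6% at an unadjusted p under 0.05. The part of granulocyte precursors in the erythroid values was not tested.

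Mature neutrophil genes (9 of 9) scored -0.55, -0.61 and 0.32 in naive engrafted and 0.25, 0.64 and 1.20 in engrafted stroke dura. Their range was -0.27 to 0.29 in naive wild type, -1.05 to -0.71 in naive deficient, 0.18 to 0.92 in wild-type stroke and -0.27 to -0.04 in deficient stroke dura. Megakaryocyte and platelet genes (7 of 10) scored -0.02, -0.12 and 0.12 in naive engrafted and 0.20, 0.34 and 0.84 in engrafted stroke dura, against -0.44 to 0.36 elsewhere. Dividing cell genes (7 of 8) scored -0.59, -0.72 and 0.05, and 0.10, 0.86 and 1.08 in the same arrays. Wild-type stroke dura, where the members were low, had dividing cell scores of 0.71 to 1.12. Replicate 3 was thus the highest engrafted array for all 4 lists, naive and after stroke, and their part in the erythroid values was not tested.

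Mast cell genes did not follow the same order. Their score was 1.07, 0.39 and 0.02 in naive engrafted replicates 1, 2 and 3, so that the array highest in erythroid genes was the lowest in mast cell genes, and 0.46, 0.61 and 0.53 after stroke. Macrophage genes of erythroblastic islands and iron recycling (7 of 7) scored 0.17, -0.14 and 0.20 in naive engrafted and -0.02, -0.01 and 0.22 in engrafted stroke dura. B cell precursor genes (10 of 11) scored 0.03, 0.02 and 0.32, and -0.14, -0.05 and 0.33. Choroid plexus genes scored 0.60, 0.81 and -1.82, and 0.65, 0.45 and -0.71, lowest in replicate 3 each time, and were also low in 4 arrays of other groups whose member scores lay between -0.26 and -0.21. The array table gives no call of signal over background, so no marker can be said to be at 0. Neuron genes (7 of 7) scored 0.15, 0.15 and 0.35 in naive engrafted and 0.23, -0.23 and 0.48 in engrafted stroke dura. They ran from -0.10 to 0.43 in naive wild type, -0.13 to 0.79 in naive deficient, -0.95 to -0.51 in wild-type stroke and -0.49 to 0.19 in deficient stroke dura. Replicate 3 was also the highest engrafted array, naive and after stroke, for dural fibroblast genes (0.23 and 0.04) and haematopoietic progenitor genes (0.07 and 0.22). For bone and skeletal muscle genes it was the highest in naive engrafted dura only (0.32 and 0.63). After stroke replicate 2 was the highest for both (0.30 and 0.33). The part of these lists in the erythroid values was not tested.

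**Figure D4:**
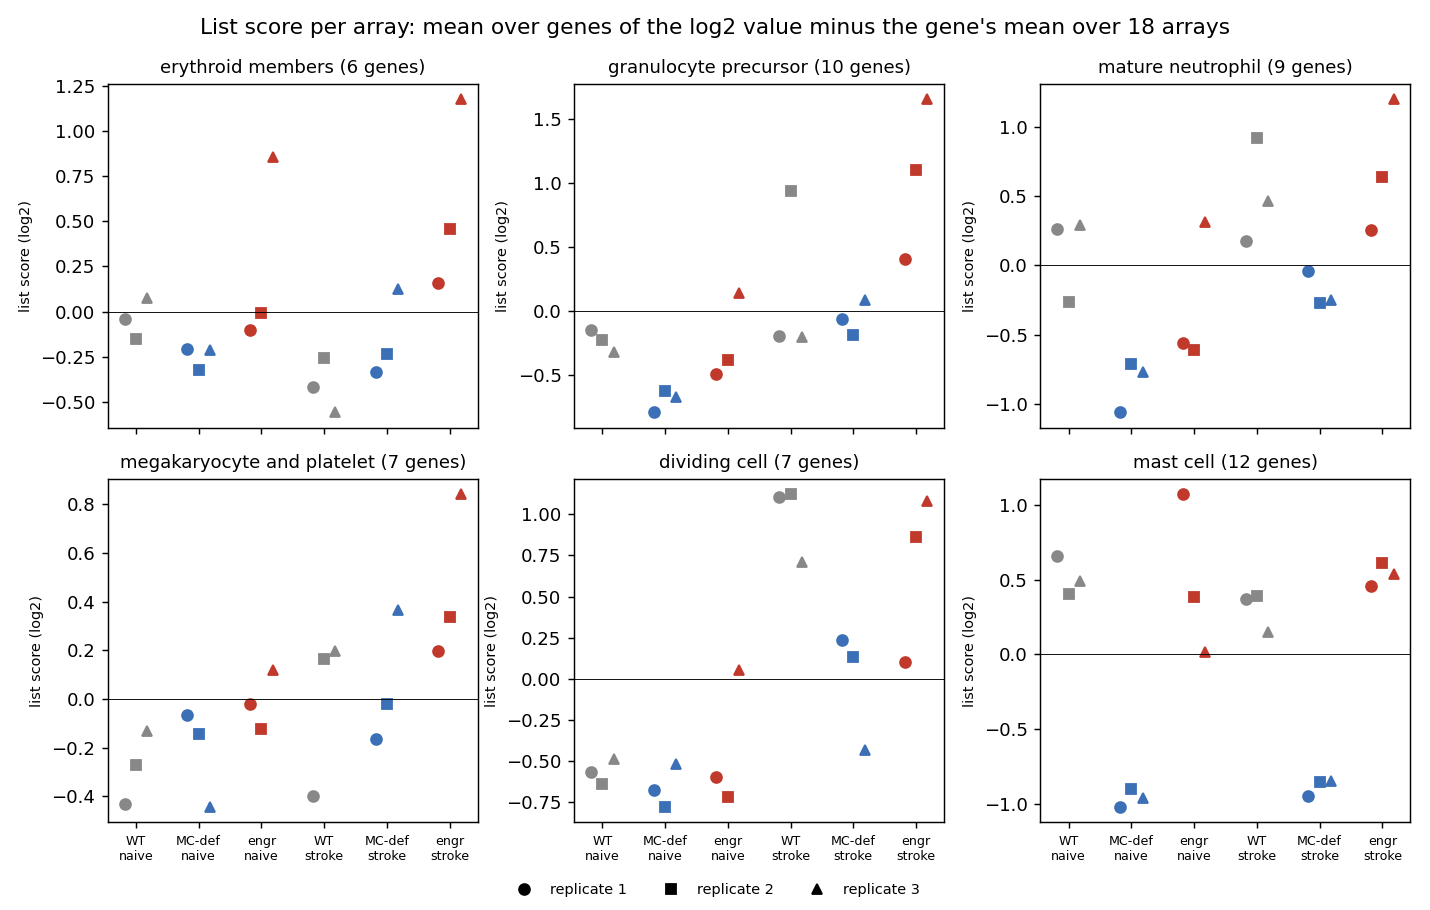
List score per array (y axis, log2 units relative to the mean of 18 arrays) for the erythroid members and 5 other cell lists, in 6 groups (WT, wild type; MC-def, mast cell-deficient; engr, engrafted), 1 point per mouse with its replicate number as the symbol. Within each engrafted group, replicate 3 (triangles) is highest for the erythroid, granulocyte precursor, neutrophil, megakaryocyte and dividing cell lists, and lowest of naive engrafted dura for mast cell genes; wild-type stroke dura reaches 1.12 for dividing cell genes.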

How the data were processed

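The deposited table gives 1 log2 value per probe set and array. The authors used RMA, affy and R 3.0.0, per the submitters' processing notes, with the role of each not given. Background and normalization details, scan dates and batches are not given in the sources used here. RMA-type summaries compress differences at low signal. Of 34760 probe sets, 21640 carried exactly 1 gene symbol in the platform annotation and were tested, 1321 carried several and 11799 were not listed. Where a gene had several (954 genes), the probe set with the highest mean stood for it.

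One mean per group was fitted over 18 arrays with limma 3.58.1 in R 4.3.3 (lmFit and eBayes, 12 residual and 3.41 prior degrees of freedom), with Benjamini-Hochberg adjustment in each of 12 comparisons and a threshold of 0.05. The fit was tested on simulated data. The number of arrays limits precision: the median SE was 0.10 for 3 arrays against 3. Members and lists were chosen with earlier results of these data known, so comparisons with engrafted groups carry no test for the members. Genes named are the members, in each list those that passed and the 2 highest in mean, and the 10 most alike by each measure. Other genes named with values were chosen after their values were seen. Alternatives were each array left out, a replicate block, quantile normalization, array weights, trended and robust variance, only the compared groups, dim probe sets left out, the mean of all probe sets of a gene, all probe sets adjusted together, each member left out of the medians, and 2 sets of arrays left out. Promoters come from RefSeq (GRCm38.p6). Figures were drawn with Python 3.11.15 and matplotlib 3.10.9.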

Additional observations from a re-analysis of the deposited data

Results flagged for a closer look

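The measured members were screened for stroke arrays on opposite sides of the naive mean in engrafted mice and in another category. Epb42, in engrafted and wild-type mice, was the only one found. Each engrafted stroke array lay above the engrafted naive mean, by 0.0071 to 0.71 on the log2 scale, and each wild-type stroke array lay below the wild-type naive mean, by -0.44 to -0.33. The responses differed by 0.66 ± 0.29 (SE). In engrafted mice the difference was 0.27 ± 0.21, and the naive arrays (6.55 to 7.50) overlapped the stroke arrays (6.92 to 7.62). An opposite response is therefore not shown. The difference between the responses was not tested, since Epb42 was chosen from engrafted arrays.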

How the results depend on the processing

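Of 42 member differences in comparisons with engrafted arrays, 31 kept their sign under all 28 alternatives and 11 did not. Of 30 in the others, 23 kept it and 7 did not. Many of the 28 alternatives could not change a sign. Several change only the SE or p, each member has 1 probe set, and an array left out moves only differences that use its group. Over engrafted minus wild type in naive dura, leaving out replicate 3 of both engrafted groups or the 5 arrays low in choroid plexus genes gave -0.0055 for the median, -0.14 for Epb42, -0.021 for Hemgn and -0.34 for Rhag, and array weights gave -0.049 for Rhag. Leaving out each array in turn gave -0.0055 to 0.38 for that median, -0.14 to 0.34 for Epb42, -0.021 to 0.36 for Hemgn and -0.34 to 0.42 for Rhag. Epb42 in engrafted minus deficient naive dura was -0.048 without the 5 arrays low in choroid plexus genes. With each array left out, stroke minus naive in engrafted mice ran from -0.025 to 0.91 for Slc4a1, -0.0070 to 0.27 for Klf1 and -0.011 to 0.46 for Hemgn. The engrafted minus deficient response ran from -0.051 to 0.51 for the median, -0.54 to 0.16 for Alas2, -0.10 to 0.18 for Klf1, -0.013 to 0.92 for Slc4a1 and -0.089 to 0.38 for Hemgn, and array weights gave 0.46 for Alas2 and -0.016 for Klf1. For stroke in wild type, 3 members passed with only the compared groups (6.65% of probe sets called) and 2 without replicate 3 of both engrafted groups (9.86%), against 0 (10.9%). Since the wild-type arrays may have served in picking the members, nothing is read from these member counts for stroke in wild type. The 2 other erythroid genes called there became 4 with a second quantile normalization (Steap3, Tmem14c, Slc11a2 and Bnip3l, without Tmcc2), 4 with array weights and 4 without replicate 3 of both engrafted groups, and 0 to 4 with each array left out. Array weights gave 3 calls for deficient against wild type after stroke, 1 for stroke in deficient and 1 for stroke in engrafted mice, against 0. Leaving out each array gave 0 to 1 for engrafted against deficient and 0 to 2 for engrafted against wild type after stroke (Ank1 in the first, and Car1 or Ank1 and Trim10 in the second). The replicate numbers did not pair the mice (correlations of same-numbered deviations from -0.61 to 0.60), and a fit with the replicate block called 0 members and 2 other erythroid genes in wild-type stroke. Where no share of all probe sets called stands beside a refit count, nothing is read from that count. The cause of these moves was not tested. With 3 arrays a group and no call of signal over background, small differences of dim genes such as Rhag are the least certain.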
